A study of Mus musculus with 7 samples.

Results

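The genes described here make cholesterol or act in sterol sensing, uptake, transfer or esterification. Many are controlled by SREBP2, the transcription factor that switches the pathway on when cell sterols run low. They were taken as a list of 27 genes by symbol, and each was read from the transcript cluster (a set of probes that the array groups by gene) annotated to that symbol alone, the brightest one where a gene had several. Of the 27 genes, 24 were measured in this way, among 19938 genes of the array that were, and all 24 passed the filter on dim genes, among 13409 genes that did. Acat2, Soat1 and Soat2 had no cluster assigned to their symbol in the annotation used and were not analysed here.

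The samples were Paneth cells, which secrete antimicrobial granules at the bottom of small-intestinal crypts, sorted by flow cytometry from mice aged 4 months. The calorie restricted mice (4 arrays) had received 60% of the calories of freely fed animals, and the ad libitum mice (3 arrays) had eaten freely, both for 4 to 7 weeks. The labels name no strain, sex, allele or drug for either group, and they call the samples biological replicates without saying how many mice went into each. Values are log2 expression, group values are mean ± SD (n = 4 calorie restricted, n = 3 ad libitum), and each difference is the calorie restricted mean less the ad libitum mean ± SE on the log2 scale. Array medians were 7.26, 7.24, 7.27 and 7.42 in calorie restricted replicates 1 to 4, against 7.29, 7.44 and 7.42 in ad libitum replicates 1 to 3. Of 8 tested Paneth markers 0 passed the test across all genes. All 8 had negative differences, from -0.21 (Habp2) to 0.00 (Lyz1), with a median of -0.05.

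As background, cholesterol is built in the cytosol and endoplasmic reticulum from acetyl-CoA by way of mevalonate, farnesyl diphosphate, squalene and lanosterol. When sterols are scarce, Scap escorts SREBP2 to the Golgi, where proteases release the part that enters the nucleus and raises transcription of nearly every enzyme of the route. When sterols are plentiful, the Insig proteins hold Scap in the endoplasmic reticulum. Intestinal cells have a further supply, because Npc1l1 takes cholesterol up from the gut lumen.

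Promoters of the set were read from RefSeq (build GRCm38.p6) as windows of 250 bases before to 50 bases after each annotated start, which held an entry for 22 of the 27 genes. Fdps, Fdft1, Sqle, Stard4 and Soat2 had no entry and were not searched. A gene was counted if any of its windows matched, and 4 of the 22 had several windows. Of these 22 genes, 20 had CCAAT on either strand, the letters bound by NF-Y, a factor known to act together with SREBP2. The share over all 27025 genes with a window was 41.1%. Counted by window, CCAAT was present in 20 of 28, against 37.4% of all windows. The GC box GGGCGG, searched on both strands, was also present in 20 of the 22, against 38.2% of all genes. The SREBP-type letters TCACNCCAC were found in 1 of the 22, Hmgcs1, against 1.44% of all genes, and the shorter core CACNCCAC, which lies inside them, in 3 (Hmgcs1, Insig1 and Acat2) against 7.12%. The E-box CACGTG was present in 5 of the 22 (Dhcr7, Hsd17b7, Insig1, Sc5d and Scap), against 8.09% of all genes. None of the 41 CCAAT matches overlapped one of the other motifs. The 4 windows printed here show the gene with the SREBP-type match, 2 further enzyme genes with several CCAAT matches, and Npc1l1, the gene that differed most between the diets. They are written 5′ to 3′ on the strand of the gene, with CCAAT (or ATTGG on the other strand) and TCACNCCAC in capitals.
Hmgcs1, chr13:119690101-119690400, plus strand: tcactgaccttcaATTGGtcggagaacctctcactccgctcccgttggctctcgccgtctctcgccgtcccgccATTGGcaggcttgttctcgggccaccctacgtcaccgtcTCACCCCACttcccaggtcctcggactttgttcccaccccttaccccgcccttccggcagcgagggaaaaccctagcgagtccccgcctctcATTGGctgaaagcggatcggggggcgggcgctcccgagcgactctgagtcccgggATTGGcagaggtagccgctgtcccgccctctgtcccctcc
Mvk, chr5:114444019-114444318, plus strand: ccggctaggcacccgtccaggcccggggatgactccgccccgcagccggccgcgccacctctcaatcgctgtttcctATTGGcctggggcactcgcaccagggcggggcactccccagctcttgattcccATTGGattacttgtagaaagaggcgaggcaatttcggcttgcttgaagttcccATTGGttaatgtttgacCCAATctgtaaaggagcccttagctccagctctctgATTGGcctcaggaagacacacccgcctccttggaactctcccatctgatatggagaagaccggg
Msmo1, chr8:64733529-64733828, minus strand: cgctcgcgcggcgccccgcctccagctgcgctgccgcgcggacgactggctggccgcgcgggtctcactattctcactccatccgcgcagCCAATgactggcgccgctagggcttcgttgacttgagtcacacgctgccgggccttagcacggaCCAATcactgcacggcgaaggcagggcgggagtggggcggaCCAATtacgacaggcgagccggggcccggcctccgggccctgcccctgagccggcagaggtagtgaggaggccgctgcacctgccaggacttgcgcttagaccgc
Npc1l1, chr11:6230196-6230495, minus strand: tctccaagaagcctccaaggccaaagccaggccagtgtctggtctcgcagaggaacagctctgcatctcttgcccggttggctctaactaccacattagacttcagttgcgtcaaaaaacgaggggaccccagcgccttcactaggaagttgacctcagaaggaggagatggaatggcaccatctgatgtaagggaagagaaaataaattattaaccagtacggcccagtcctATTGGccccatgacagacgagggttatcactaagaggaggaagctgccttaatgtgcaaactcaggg
The Hmgcs1 window holds 4 CCAAT matches and the SREBP-type match TCACCCCAC, which begins at position -137 relative to the annotated start. The Mvk window holds 5 CCAAT matches, that of Msmo1 3 and that of Npc1l1 1. These are letter matches in the reference and not measured sites.

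The diets were compared to ask how calorie restriction changes expression in Paneth cells. None of the 24 genes passed the test across all genes (limma, Benjamini-Hochberg adjusted p below 0.05), where 89 of 13409 genes (0.664%) did. At an unadjusted p below 0.05 there was 1 of the 24, Npc1l1, against 9.3% of all genes tested. Of the 24 genes 18 had a negative difference, against 45.8% of all genes tested, and their median difference was -0.09, against 0.01 over all genes. By role, 16 of 18 enzymes were negative, with a median of -0.11, and 2 of the 6 sensing and carrier genes were negative. All 18 enzyme differences had a 95% interval that included 0. These directions depend on which scaling is used. After median centring of arrays, which put the median of all genes at 0.10, the enzymes had a median of -0.03 and 11 of 18 were negative. After quantile normalization their median was -0.13 and 16 of 18 were negative. The gap between the median of the enzymes and that of all genes was -0.127 as deposited and -0.158 after quantile normalization. Median centring shifts the difference of every gene by the same amount, so it could not change this gap.

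**Figure D1:**
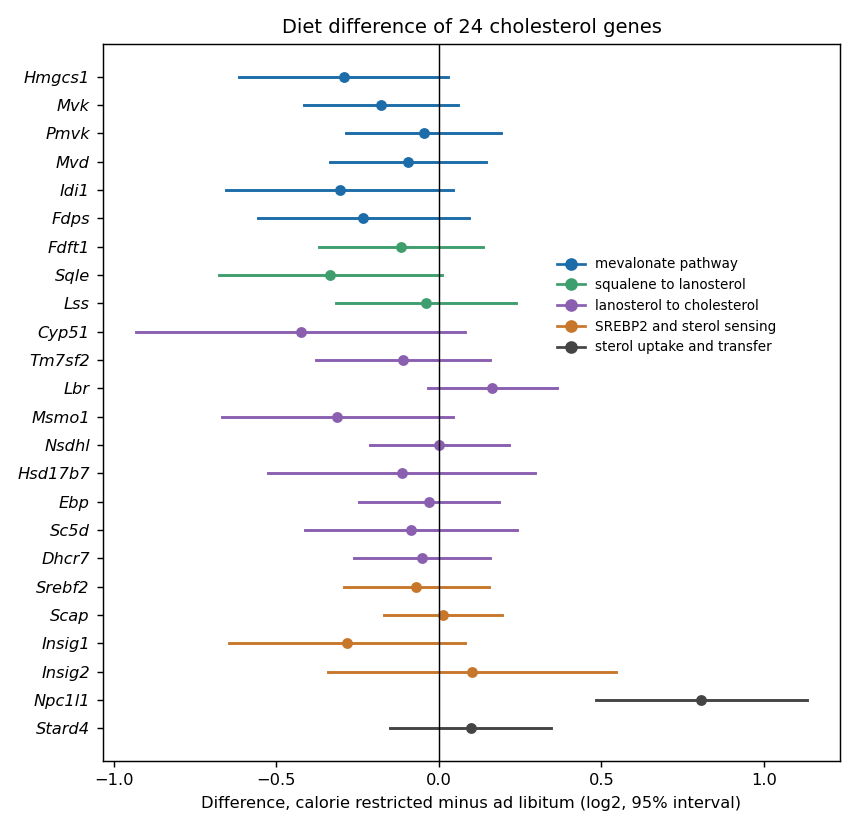
Difference between calorie restricted and ad libitum arrays for the 24 measured genes (x axis, log2; points are limma estimates and bars 95% intervals), grouped by role from the start of the pathway at the top. The intervals of 23 of 24 genes cross 0, and that of Npc1l1 runs from 0.48 to 1.13.

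In the mevalonate pathway all 6 measured genes had negative differences, from -0.30 to -0.05, with a median of -0.20, and 0 passed. Hmgcs1, which encodes the cytosolic enzyme that condenses acetoacetyl-CoA with acetyl-CoA to HMG-CoA, was at 11.35, 11.29, 11.25 and 10.84 in calorie restricted replicates 1 to 4, against 11.66, 11.44 and 11.32 in ad libitum replicates 1 to 3. Calorie restricted replicate 4 was the lowest and ad libitum replicate 1 the highest, and the groups overlapped through ad libitum replicate 3. The difference was -0.29 ± 0.14 (limma, adjusted p = 0.6). Idi1, the isomerase that turns isopentenyl into dimethylallyl diphosphate, was at 10.18, 9.61, 9.70 and 9.70 in calorie restricted replicates 1 to 4, against 10.29, 9.96 and 10.05 in ad libitum replicates 1 to 3. Without calorie restricted replicate 1 the groups would not overlap, and the difference was -0.43 there against -0.30 ± 0.15 with it (limma, adjusted p = 0.628 with it). The other cluster of Idi1 gave a difference of -0.27. Farnesyl diphosphate synthase, encoded by Fdps, was at 10.74 ± 0.21 in calorie restricted and 10.97 ± 0.21 in ad libitum arrays. The mevalonate kinase gene Mvk was at 9.33 ± 0.08 in calorie restricted and 9.51 ± 0.17 in ad libitum arrays. The kinase and decarboxylase genes of the next steps, Pmvk and Mvd, had differences of -0.05 ± 0.10 and -0.09 ± 0.10.

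Squalene epoxidase, encoded by Sqle, catalyses the oxygen-requiring entry into the sterol steps and is a main point of control of the pathway. Sqle was at 10.25, 10.03, 9.97 and 9.71 in calorie restricted replicates 1 to 4, against 10.56, 10.28 and 10.13 in ad libitum replicates 1 to 3. Calorie restricted replicate 1 lay above ad libitum replicate 3 and below the other ad libitum arrays, so the groups overlapped by 1 array on each side. With a difference of -0.33 ± 0.15 (95% interval -0.68 to 0.01, limma, adjusted p = 0.559) Sqle had the smallest unadjusted p among the enzymes, 0.0547. Fdft1, which joins farnesyl diphosphate units to squalene, was at 11.49 ± 0.10 in calorie restricted and 11.61 ± 0.21 in ad libitum arrays. The other cluster of Fdft1 gave a difference of -0.17, against -0.12 for the one used. Lss, which closes squalene epoxide to lanosterol, differed by -0.04 ± 0.12.

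Among the 9 enzymes that lead from lanosterol to cholesterol, 7 had negative differences and the median was -0.09. Cyp51, the lanosterol demethylase, had the lowest difference of the whole set at -0.43 ± 0.22 (limma, adjusted p = 0.645). It was at 9.39, 9.25, 9.15 and 8.69 in calorie restricted replicates 1 to 4, against 9.99, 9.21 and 9.43 in ad libitum replicates 1 to 3. One array at each end carried much of this difference, which was -0.20 when ad libitum replicate 1 was left out and -0.28 when calorie restricted replicate 4 was. Msmo1, the sterol methyl oxidase of the next demethylations, was at 10.83, 10.52, 10.44 and 10.31 in calorie restricted replicates 1 to 4, against 11.08, 10.86 and 10.58 in ad libitum replicates 1 to 3. Here calorie restricted replicate 1 lay within the ad libitum range and the other 3 lay below it. The difference was -0.31 ± 0.15 (limma, adjusted p = 0.624).

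The remaining genes of these late steps had smaller differences. Hsd17b7, the sterol ketone reductase, was at 10.08, 9.89, 9.84 and 10.03 in calorie restricted replicates 1 to 4, against 10.55, 9.82 and 9.85 in ad libitum replicates 1 to 3. Its difference of -0.11 ± 0.18 rested on ad libitum replicate 1, without which it was 0.12. Sc5d, the desaturase, differed by -0.09 ± 0.14. Tm7sf2 and Lbr encode the pair of proteins known to share the sterol C14 reductase step, Lbr being also a lamin receptor of the inner nuclear membrane. Tm7sf2 was at 8.75 ± 0.19 in calorie restricted and 8.86 ± 0.05 in ad libitum arrays. Lbr was at 10.57, 10.42, 10.30 and 10.49 in calorie restricted replicates 1 to 4, against 10.30, 10.23 and 10.32 in ad libitum replicates 1 to 3. Lbr was thus the enzyme with the most positive difference, 0.16 ± 0.09 (95% interval -0.03 to 0.36), and calorie restricted replicate 3 lay within the ad libitum range. The genes of the sterol dehydrogenase Nsdhl, the isomerase Ebp and the last reductase Dhcr7 differed by 0.00 ± 0.09, -0.03 ± 0.09 and -0.05 ± 0.09, with 95% intervals that lay between -0.26 and 0.22.

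**Figure D2:**
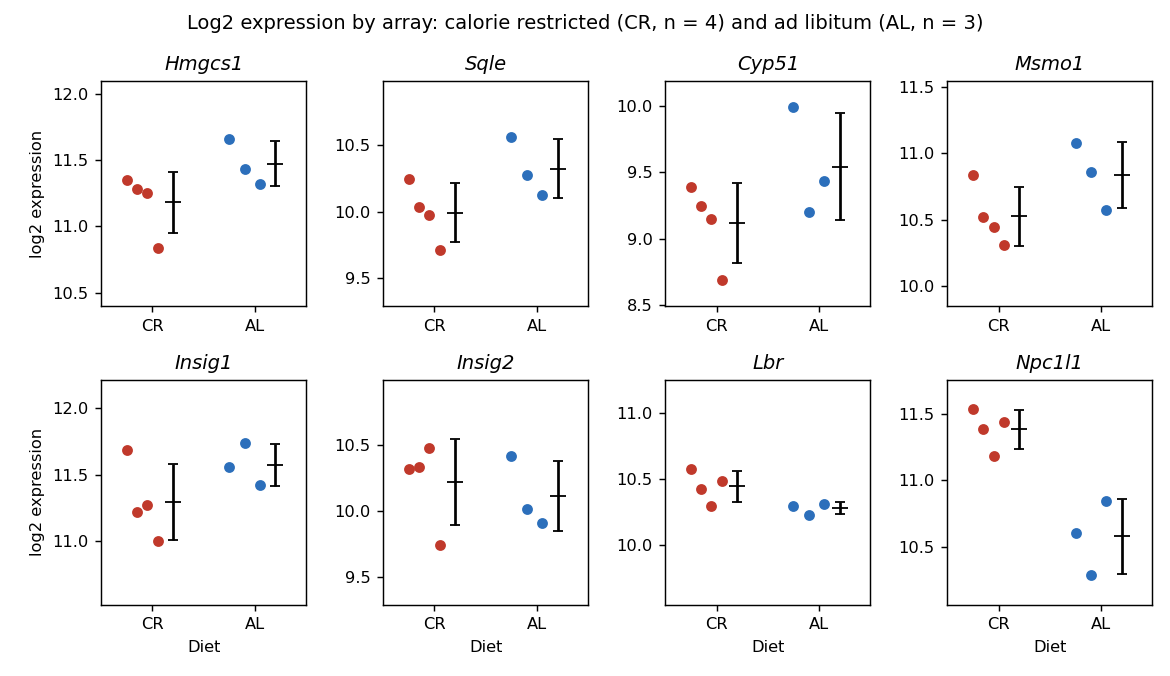
Log2 expression (y axis, each panel spanning the same range) of 8 genes in each calorie restricted (red, n = 4) and ad libitum (blue, n = 3) array, with replicates in numerical order and black bars for mean and SD. The groups overlap in 7 of the panels, and Npc1l1 lies at 11.18 or more in calorie restricted arrays and at 10.85 or less in ad libitum arrays.

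Of the 4 genes that encode SREBP2 and its sterol sensing partners, 2 had negative and 2 had positive differences, and 0 passed. Srebf2, which encodes SREBP2 and is itself one of its targets, was at 10.86, 10.83, 10.78 and 10.67 in calorie restricted replicates 1 to 4, against 11.04, 10.82 and 10.71 in ad libitum replicates 1 to 3. These groups overlapped, with a difference of -0.07 ± 0.10 (95% interval -0.29 to 0.15), and Scap differed by 0.01 ± 0.08 (-0.17 to 0.20). Insig1, whose transcription SREBP2 raises, was at 11.68, 11.21, 11.27 and 11.00 in calorie restricted replicates 1 to 4, against 11.56, 11.74 and 11.42 in ad libitum replicates 1 to 3. Calorie restricted replicate 1 lay within the ad libitum range and the other 3 lay below it, as in Msmo1, and the difference was -0.28 ± 0.16 (limma, adjusted p = 0.682). Insig2, a related retention protein whose gene is not known as an SREBP2 target, was at 10.32, 10.33, 10.48 and 9.74 in calorie restricted replicates 1 to 4, against 10.42, 10.02 and 9.91 in ad libitum replicates 1 to 3. Its difference had the opposite sign, 0.10 ± 0.19, with calorie restricted replicate 4 below all other arrays. Whether the differences of Insig1 and Insig2 differ from each other was not tested.

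Npc1l1, the importer of luminal cholesterol in the intestinal brush border, had the most positive difference of the set, with a calorie restricted level 1.75 times the ad libitum level. It was at 11.54, 11.38, 11.18 and 11.44 in calorie restricted replicates 1 to 4, against 10.60, 10.29 and 10.85 in ad libitum replicates 1 to 3. Every calorie restricted array lay above every ad libitum array, which held for 1 of the 24 genes and for 7.14% of all genes tested. The opposite order, every calorie restricted array below every ad libitum array, held for 0 of the 24 and for 3.03% of all genes tested. The difference of 0.81 ± 0.14 (95% interval 0.48 to 1.13) did not pass over all genes (limma, adjusted p = 0.0562, unadjusted p = 0.000411). The adjusted p was 0.0467 after median centring, 0.00578 with array weights and 0.0349 without ad libitum replicate 3, and from 0.0553 to 0.316 in the other alternatives. Stard4, a carrier that moves cholesterol between membranes and a known SREBP2 target, was at 10.60, 10.48, 10.39 and 10.29 in calorie restricted replicates 1 to 4, against 10.44, 10.16 and 10.43 in ad libitum replicates 1 to 3. The groups overlapped, with a difference of 0.10 ± 0.11.

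Markers of absorptive enterocytes, which also express Npc1l1, stood higher in the same arrays. Of 27 measured markers, 11 passed over all genes, against 0.664% of all genes tested. All 27 had a positive difference, with a median of 1.09, whereas 45.8% of all genes tested were negative. These markers were chosen with earlier results of these data known. Their mean level ran from 11.50 to 11.73 in calorie restricted arrays and from 10.07 to 10.73 in ad libitum arrays, and the mean of each of the 27 lay above the filter on dim genes. Their part in the Npc1l1 difference was not tested. In sorted bulk RNA, fewer cells of a type and less RNA per cell cannot be told apart. Ad libitum replicate 2 had the lowest enterocyte mean (10.07) and the lowest Npc1l1 value, and without that array the Npc1l1 difference was 0.66 ± 0.13. Within the calorie restricted group the orders differed: replicate 3 had the highest enterocyte mean (11.73) and the lowest Npc1l1 value (11.18), and replicate 4 had the lowest enterocyte mean (11.50) with Npc1l1 at 11.44.

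The enzymes also varied within each diet. Their mean per array had an SD of 0.13 over calorie restricted and 0.16 over ad libitum arrays, beside a difference of -0.14 between the means of the diets. Each of the 18 enzymes had its highest value in ad libitum replicate 1 (13 enzymes) or in calorie restricted replicate 1 (5 enzymes), whereas these arrays held the highest value of 24.3% and 12.3% of all genes tested. This pair of arrays was picked out after the values were seen. In calorie restricted replicate 1, 17 of 18 enzymes lay above their own mean over the 7 arrays, with a median deviation of 0.12 (0.01 over all genes). In ad libitum replicate 1 this held for 16 of 18 enzymes, with a median deviation of 0.26 (0.02 over all genes). The arrays at the low end were calorie restricted replicates 2, 3 and 4, with median deviations of -0.07, -0.10 and -0.15, and ad libitum replicates 2 and 3 lay close to the mean, at 0.01 and -0.02. Calorie restricted replicate 4 was the lowest array for 7 enzymes, against 20.3% of all genes tested. That count was 10 after quantile normalization (23.5% of all genes) and 11 after median centring (25.3%). Both arrays at the high end carry replicate number 1, and the labels do not say that a number marks a shared day or litter.

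**Figure D3:**
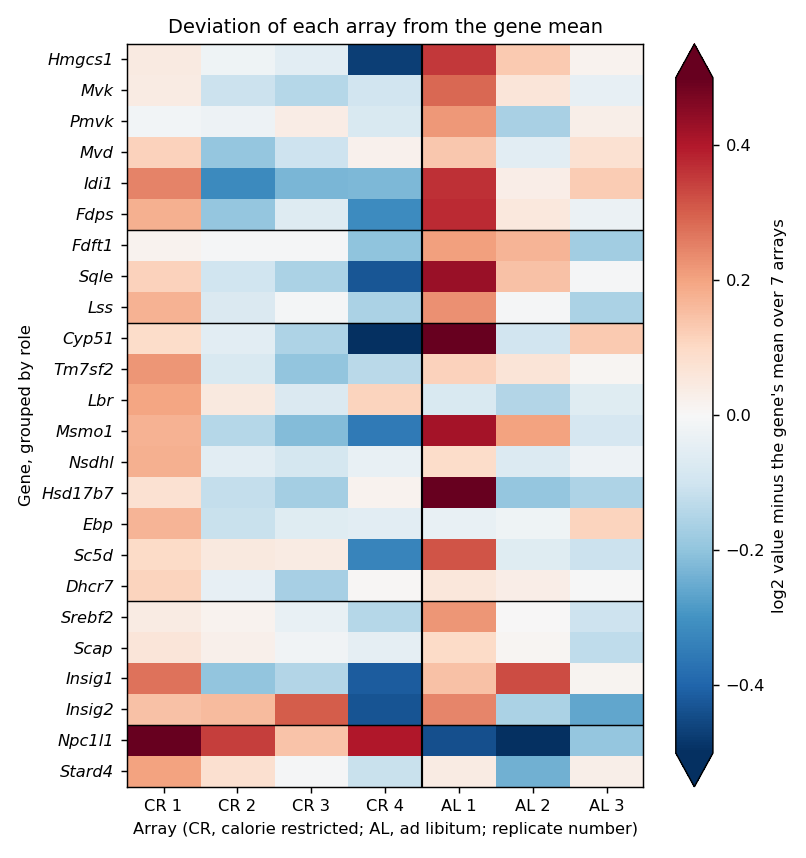
Deviation of each array (columns, calorie restricted left and ad libitum right of the line) from each gene's own mean over the 7 arrays (colour, log2), with genes in rows grouped by role and the darkest colours also holding values beyond the scale. Ad libitum replicate 1 is above the mean for 16 of the 18 enzymes and calorie restricted replicate 1 for 17, and the Npc1l1 row divides by diet.

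Averaged over the 18 enzymes, expression was 10.09, 9.88, 9.86 and 9.78 in calorie restricted replicates 1 to 4, against 10.22, 9.97 and 9.94 in ad libitum replicates 1 to 3. Replicate 1 of the calorie restricted group thus lay above ad libitum replicates 2 and 3. Without ad libitum replicate 1 the median difference of the enzymes was -0.06 and 12 of 18 were negative, and without ad libitum replicate 3 it was -0.19 with 16 of 18 negative. Markers of dividing cells were also unevenly spread over arrays. Their mean over 7 genes was 10.79, 10.37, 10.25 and 11.07 in calorie restricted replicates 1 to 4, against 9.74, 10.68 and 10.94 in ad libitum replicates 1 to 3. The array with the highest enzyme mean, ad libitum replicate 1, thus had the lowest proliferation mean, and calorie restricted replicate 4, with the lowest enzyme mean, had the highest. The other arrays did not follow this opposite order. Calorie restricted replicates 2 and 3 lay below calorie restricted replicate 1 and ad libitum replicates 2 and 3 in both means. Calorie restricted replicate 4 also had the lowest mean over 8 Paneth markers, 13.61, against 13.80 to 13.91 in the 6 other arrays. The part of these differences in the enzyme values was not tested.

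**Figure D4:**
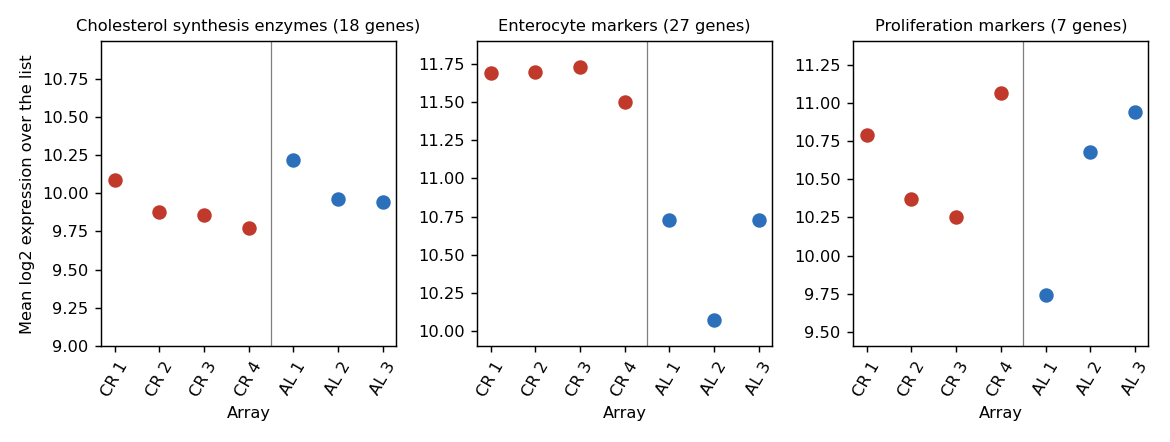
Mean log2 expression per array (y axis, panels spanning the same range) over 18 cholesterol synthesis enzymes, 27 enterocyte markers and 7 proliferation markers, with calorie restricted arrays in red at left and ad libitum arrays in blue at right. The enterocyte means separate the diets, the enzyme means overlap, and ad libitum replicate 1 is highest for enzymes and lowest for proliferation markers. Calorie restricted replicates 2 and 3 lie below calorie restricted replicate 1 and ad libitum replicates 2 and 3 for enzymes and for proliferation markers.

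Other genes around the pathway were read from 5 lists, and 0 of their 46 tested genes passed over all genes, with 10 at an unadjusted p below 0.05 in limma (0.664% and 9.3% of all genes tested). Of 10 tested genes for oxysterol handling, sterol efflux and the oxysterol receptor LXR, 9 had positive differences with a median of 0.37, and 4 had groups that did not overlap, all higher in calorie restricted arrays. Over all genes tested, 45.8% were negative and 7.14% had every calorie restricted array above every ad libitum array. Abcg8, which with Abcg5 forms the pump that returns sterols to the gut lumen, was at 10.07, 10.12, 9.98 and 10.01 in calorie restricted replicates 1 to 4, against 8.90, 9.42 and 9.51 in ad libitum replicates 1 to 3 (difference 0.77 ± 0.15, limma, adjusted p = 0.0696). Abcg5 differed by 0.61 ± 0.17 (limma, adjusted p = 0.26), the lysosomal lipase gene Lipa by 0.88 ± 0.17 (adjusted p = 0.0755) and the sterol hydroxylase gene Cyp27a1 by 0.50 ± 0.13 (adjusted p = 0.195). None of these 4 passed, and their values and the enterocyte marker means separated the same arrays. The part of those markers was not tested.

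Genes for SREBP cleavage and sterol-regulated degradation differed less, with a median of 0.03 over 11 tested. The endoplasmic reticulum protein gene Erlin1 had the smallest p there, at 0.43 ± 0.16 (limma, adjusted p = 0.437), and the ubiquitin ligase gene Rnf145 differed by 0.14 ± 0.10. For acetyl-CoA supply and electron donors the median was 0.10 over 8 genes, led by the reductase gene Cyb5r3 at 0.36 ± 0.07 (adjusted p = 0.103). The nonsterol branch to isoprenoids had a median of 0.06 over 9 genes. For SREBP1 and fatty acid synthesis the median was -0.05 over 8 genes. Within it, the desaturase genes Scd2 and Scd1 had differences of opposite sign, -0.82 ± 0.26 and 0.94 ± 0.32 (limma, adjusted p = 0.317 and 0.378). Scd1 was dim, at 7.62 ± 0.60 in calorie restricted and 6.67 ± 0.38 in ad libitum arrays. Its ad libitum mean lay under the filter level of 6.79, so it passed the filter through the calorie restricted arrays. The fatty acid synthase gene Fasn differed by -0.24 ± 0.11 (limma, adjusted p = 0.562).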

How the data were processed

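The deposited table holds log2 values per transcript cluster. Per the submitters' processing notes, the authors produced them in Affymetrix Expression Console. The algorithm and normalization of that step are not given in these sources. The log2 scale was inferred from the range of the values. No detection call was used, so background is unknown, and the number of arrays limits the precision.

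Of 35556 clusters, 21789 had 1 symbol, 1621 had several and 12146 were unnamed here, by the platform annotation. Dim genes, whose mean lay under 6.79, the 40th percentile over clusters, were left out. In R (version 4.3.3), limma (version 3.58.1) fitted diet alone, with lmFit and then eBayes allowing a trend with intensity, and p-values were adjusted by Benjamini-Hochberg over 13409 genes. The fit was run on simulated data only as a check of the code, and no result here rests on that run. Members, gene lists and the naming rule (all members, and up to 4 genes with the smallest p in each other list) were chosen with earlier results of these data known. The alternatives were quantile normalization, median centring, filters, cluster averaging, no trend, array weights, a replicate block and leaving out each array. Motifs were searched with Python (version 3.11.15) and figures drawn with matplotlib (version 3.10.9).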

Additional observations from a re-analysis of the deposited data

Results flagged for a closer look

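Within the 4 calorie restricted arrays, 3 genes had an array set far apart from the rest, among 24 genes examined. The rule is set so that independent, normally distributed values give such a gap in about 1 of 20 groups. The share over all genes tested is not given here, so whether 3 of 24 is many cannot be said. Idi1 was at 10.18 in replicate 1, against 9.61 to 9.70 in the other 3. Its other cluster was also highest there, at 10.13 against 9.55 to 9.69, but did not meet the same rule. Fdft1 was at 11.34 in replicate 4, against 11.53 to 11.56 in the other 3. The other cluster of Fdft1 was also lowest there, at 11.27 against 11.49 to 11.54, but did not meet the rule either. Sc5d was at 10.27 in replicate 4, against 10.64 to 10.69.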

How the results depend on the processing

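Of the 24 genes, 0 passed in 6 of the 8 alternatives that dropped no array by choice, and 1, Npc1l1, passed after median centring and with array weights. The replicate block is counted among these 8, although its differences drew nothing from calorie restricted replicate 4. Leaving out 1 array gave 0 to 1 such genes. The number called over all genes was 89, and was 53 after quantile normalization, 1355 with array weights and 0 with the replicate block, and 12 to 105 without 1 array (12 without calorie restricted replicates 1 or 3, 23 without replicate 2 and 32 without ad libitum replicate 2). With the replicate block, 0 of the 24 passed and the Npc1l1 difference was 0.79 ± 0.17 (limma, adjusted p = 0.316). Calorie restricted replicate 4 has no ad libitum array of its number and added nothing to that difference, which was also 0.79 without that array. The labels do not say what a shared number marks. Same-numbered arrays deviated from their group means with correlations across genes of -0.126, -0.265 and -0.55. These cannot show whether such arrays shared a day or litter, because deviations within a group are tied to each other. The median difference of the 24 genes was -0.11 after quantile normalization and -0.00333 after median centring, and -0.14 to -0.04 without 1 array. Negative differences numbered 12 of 24 after median centring, 13 with array weights, and 13 to 20 without 1 array (13 without ad libitum replicate 1). The enzyme median, added after seeing the data, lay between -0.19 and -0.06 without 1 array. Ad libitum replicate 1 was the highest array for 14 of 18 enzymes after quantile normalization (31.9% of all genes) and for 12 after median centring (25.1%). With 4 and 3 arrays the resolution differed between enzymes, the 95% interval of Cyp51 running from -0.93 to 0.08 and that of Dhcr7 from -0.26 to 0.16.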
